A study of Mus musculus with 12 samples.

Results

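Levels of 51 genes for enzymes that write, remove or serve marks on DNA and histones were followed across 12 RNA libraries of a mouse acute myeloid leukaemia. The genes were chosen by symbol and enzyme class, with earlier results of these data known, and all 51 were found among the 33531 symbols that each library lists. They fall into 12 classes: DNA methyltransferases with their cofactor Uhrf1, TET dioxygenases, isocitrate dehydrogenases, the core of Polycomb repressive complex PRC2, Bap1 with Asxl1, lysine demethylases, the KMT2 family, other lysine methyltransferases, class I, class IIa and class IIb deacetylases (the last joined by Sirt1), and acetyltransferases.

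The leukaemia line, CMM-tetON-shStat3, carries the inv(16) rearrangement, which joins Cbfb to a myosin gene, and a doxycycline (Dox) inducible short hairpin aimed at Stat3. It was grown from the vein in NSG mice, a host that lacks T, B and NK cells of its own but keeps myeloid cells. The hosts received PBS, the oligonucleotide CpG1668 (unmethylated CG motifs, sensed by the receptor TLR9), Dox, or CpG1668 with Dox (written CpG1668+Dox), by vein, once about 1% of the blood was leukaemia. The labels give 6 daily treatments in one place and 3 treatments on alternate days in another. Spleens were taken 1 day after the last treatment and sorted for the GFP and mCherry of the leukaemia cells, and each of the 4 groups had 3 libraries. Every group, PBS included, carried the hairpin construct, no group received Dox without it, and all cells came from a single line. Whether each library is a mouse of its own is left unsaid in the labels, and a p-value here stands for the spread between libraries alone, which may be technical. Values are the authors' RPKM (reads scaled by gene length and by sequencing depth), a scale on which levels of different genes can be compared per length.

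Each library held an estimated 30460000 to 35040000 reads, and in 11 of 12 the closest other library belonged to the same group (Dox 1 was closest to CpG1668 3). The Stat3 transcript, which the hairpin targets, was not lower in the libraries labelled Dox: the PBS mean was 17.2 ± 0.576 RPKM (SD, n = 3), that of CpG1668 18.2 ± 0.483, that of Dox 18.9 ± 0.173 and that of CpG1668+Dox 19.4 ± 0.331. It was called higher than in PBS in Dox (log2 change 0.13, limma adjusted p = 0.044) and in CpG1668+Dox (0.16, adjusted p = 0.0068), with no overlap of the libraries. The labels therefore name the treatment given, and no comparison below can be read as one of less Stat3 transcript. Among genes that mark the leukaemia and its lineage, Cbfb lay at 28.9 to 33.1 RPKM over the 12 libraries, Kit at 15.8 to 19.7, Myh11 at 1.46 to 1.68 and the erythroid factor Gata1 at 85.6 to 107. The progenitor gene Cd34 was low, with means of 0.0404 under PBS, 0.258 with CpG1668, 0.148 with Dox and 0.395 with both, and the granule gene Mpo had means of 2.26, 47.8, 17.4 and 86.9 in the same order. For Cd34 and Mpo all PBS libraries lay below all treated ones. The libraries also differed in maturity markers. The summed level of 15 late neutrophil genes spanned 109.8 to 223 RPKM under PBS, 660 to 858 with CpG1668, 592 to 2345 with Dox and 1760 to 4610 with both. The sum over 15 monocyte and macrophage genes was 27.8 to 48.7, 151 to 172, 114 to 191 and 322 to 470 in the same order. That over 15 erythroid genes went the other way, at 15411 to 20341, 6868 to 11194, 4036 to 8314 and 4004 to 6650 RPKM. None of the genes on these 3 lists was listed at 0 in a CpG1668+Dox library. In bulk RNA, fewer cells of a type and less RNA per cell cannot be told apart.

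DNA methyltransferases place methyl groups on cytosines of CG pairs: Dnmt1 copies the pattern after replication, with Uhrf1 guiding it to hemimethylated sites, and Dnmt3a and Dnmt3b set new patterns. TET dioxygenases oxidise methylcytosine with oxoglutarate, the product of the isocitrate dehydrogenases Idh1 and Idh2. On histones, PRC2 and the KMT2 enzymes write opposing methyl marks on histone H3, repressive and active, and demethylases, deacetylases and acetyltransferases complete the cycle of marking and erasure. Several of these genes, among them Dnmt3a, Tet2, Idh1, Idh2, Asxl1, Ezh2 and Kmt2a, are recurrently mutated or rearranged in human myeloid leukaemia.

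The promoters of these genes had a higher median number of CG pairs, the pairs that the DNA methyltransferases act on, than all annotated promoters. Promoter windows from RefSeq (GRCm38.p6) were available here for 43 of the 51 genes, as 60 windows of 250 bases upstream. The median window, counted before any cut, held 18.5 CG pairs, against 6 over all 32851 promoter windows of the annotation. A mean RPKM of 1 was reached by 49 of the 51 enzyme genes but by 12167 of all 33531 symbols. Promoters of genes of like level were not compared, so the difference is not shown to be particular to these enzymes. Shown here are the windows of 4 histone methyltransferase genes that were called higher after CpG1668+Dox, Kmt2a, Kmt2d, Ehmt2 and Ehmt1, in the direction of transcription and cut where an annotated exon begins, with each CG pair in capitals. Kmt2a lies on the minus strand (chr9:44881297-44881539, 29 CG pairs) and Kmt2d on the minus strand (chr15:98871206-98871455, 26 CG pairs). The Ehmt2 window is on the plus strand, before the downstream start site of the gene (chr17:34898720-34898953, 35 CG pairs), and that of Ehmt1 on the minus strand (chr2:24919615-24919859, 25 CG pairs).
Kmt2a: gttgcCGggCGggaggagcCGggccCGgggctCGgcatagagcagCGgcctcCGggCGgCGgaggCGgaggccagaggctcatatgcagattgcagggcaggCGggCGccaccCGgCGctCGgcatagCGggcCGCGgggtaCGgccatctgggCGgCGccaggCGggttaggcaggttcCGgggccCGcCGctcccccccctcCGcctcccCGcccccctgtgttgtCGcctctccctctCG
Kmt2d: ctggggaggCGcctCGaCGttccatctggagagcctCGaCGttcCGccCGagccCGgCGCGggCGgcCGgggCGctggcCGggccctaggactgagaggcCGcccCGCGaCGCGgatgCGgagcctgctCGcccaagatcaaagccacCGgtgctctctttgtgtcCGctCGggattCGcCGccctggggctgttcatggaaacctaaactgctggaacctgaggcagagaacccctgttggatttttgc
Ehmt2: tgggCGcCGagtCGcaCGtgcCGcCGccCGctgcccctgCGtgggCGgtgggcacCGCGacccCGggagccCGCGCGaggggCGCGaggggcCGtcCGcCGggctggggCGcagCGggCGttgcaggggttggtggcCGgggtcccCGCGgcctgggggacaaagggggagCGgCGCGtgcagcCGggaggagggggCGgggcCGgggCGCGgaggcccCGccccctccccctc
Ehmt1: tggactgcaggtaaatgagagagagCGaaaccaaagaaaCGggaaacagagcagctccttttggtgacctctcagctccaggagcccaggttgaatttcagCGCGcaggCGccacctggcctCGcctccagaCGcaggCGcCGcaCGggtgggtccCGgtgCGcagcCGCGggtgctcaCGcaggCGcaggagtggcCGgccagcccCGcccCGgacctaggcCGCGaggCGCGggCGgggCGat

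Letters of the STAT type, TTCNNNGAA (the same on both strands), were present in 7.02% of all windows and in 3 of the 60 windows of the enzyme genes, which belong to Hdac7 and Kmt2d. In Kmt2d they begin at position 98871254 of chromosome 15, inside the window printed above. No binding or methylation was measured in these libraries, and a match describes the letters only.

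The enzyme genes covered a wide range of levels in all groups. Over the 12 libraries, 2 of the 51 genes averaged under 1 RPKM (Tet1 and Hdac9), 8 lay from 1 to 5, 32 from 5 to 20 and 9 at 20 or above. Dnmt1 was the highest at 66.4 RPKM, followed by Uhrf1 at 47.3 and the PRC2 subunit Suz12 at 37.1. The maintenance enzyme thus exceeded the enzymes of new methylation in every library: Dnmt1 was 23.8 to 30 times as high as Dnmt3a, with a median of 25.9, and Dnmt3b was 1.87 to 2.67 times Dnmt3a. Tet3 exceeded Tet2 by a median of 2.28 times. Ezh2, the main catalytic subunit of PRC2 in dividing cells, stood 5.40 to 6.54 times above its relative Ezh1, and Ehmt2 stood 3.68 to 4.30 times above Ehmt1. The demethylase gene Kdm5c stood 4.06 to 4.90 times above Kdm5b, and the acetyltransferase Kat2a 3.36 to 4.14 times above Kat2b. Hdac1 and Hdac2 were close to each other, at a ratio of 0.825 to 1.02.

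**Figure D1:**
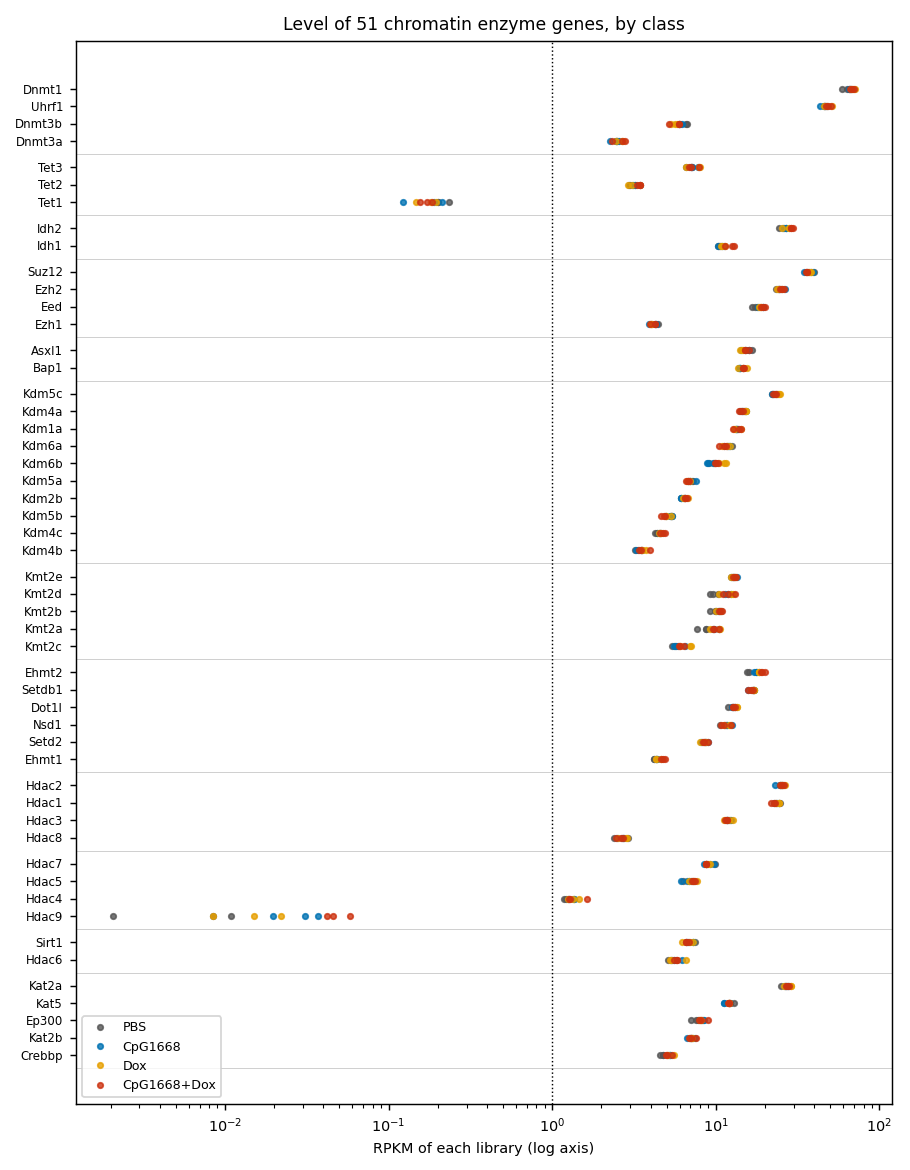
RPKM of each of the 51 enzyme genes (rows, in 12 classes divided by grey lines) in each of the 12 libraries (points, coloured by group), on a log axis, with a dotted line at an RPKM of 1. The points of a gene lie close together beside the distances between genes, except for Hdac9, and Tet1 and Hdac9 fall under the line.

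Differences between groups were small beside those between genes. Of the 51 genes, 49 had a mean RPKM of at least 1 and entered a limma fit of log2(RPKM + 1) over all 12167 genes that passed the same filter. Changes below are differences on that log2 scale, which understates changes of low genes, and a gene is called at an adjusted p under 0.05 (Benjamini-Hochberg over the 12167 genes). For all 49 genes, in all 7 comparisons, the 95% interval of the change stayed within 1.5-fold in either direction, also at a pseudocount of 0.1. The bound farthest from 0 in a comparison of 2 groups was that of Kmt2d after CpG1668+Dox, at 1.35-fold. The median size of the change from PBS, without its sign, was 0.0469 with CpG1668, 0.0649 with Dox and 0.0711 with both, against 0.0646, 0.0645 and 0.0817 over all 12167 genes. The enzyme gene that changed most in each of these comparisons was exceeded by 7.47%, 7.33% and 10.3% of all genes.

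**Figure D2:**
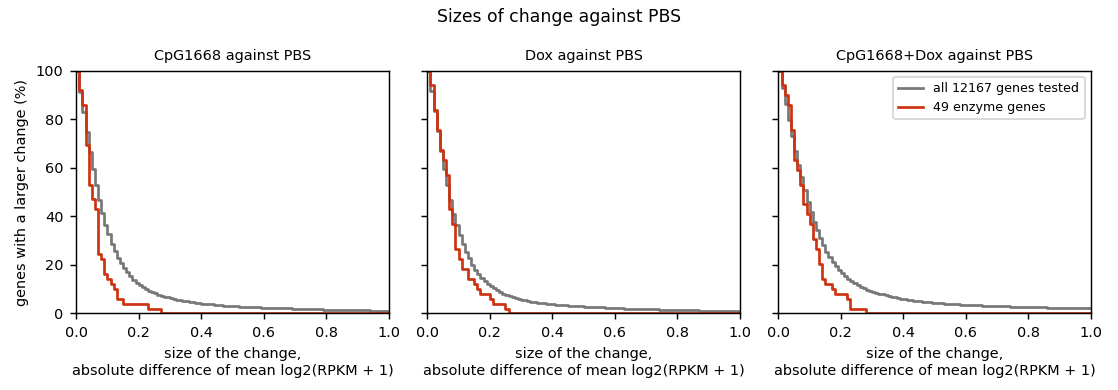
Share of genes (percent, vertical axis) whose change from PBS exceeds the size on the horizontal axis (log2 scale, without sign), for all 12167 genes and for the 49 enzyme genes, in the 3 comparisons against PBS. The curve of the enzyme genes ends at 0.266, 0.259 and 0.273, while that of all genes runs on.

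Called enzyme genes were few after either treatment alone and more numerous after both. Against PBS, CpG1668 gave 0 of 49 called (limma), where 5.88% of all 12167 genes were called, and 9 (of all genes 20.5%) had an unadjusted p under 0.05. Dox gave 2 of 49, Kdm6b and Kmt2a, both higher, where 5.98% of all genes were called (3.95% higher). CpG1668+Dox gave 9 of 49 (18.4%), 7 higher and 2 lower, where 15.5% of all genes were called (9.13% higher and 6.4% lower), so the share among the enzyme genes lay near that of all genes. The 3 comparisons share the PBS libraries. Over all genes the calls split into 480 higher and 248 lower in Dox and 1111 and 779 in CpG1668+Dox, but into 328 and 309, and 984 and 1356, after quantile normalization, and into 1004 and 1059 in CpG1668+Dox under median-of-ratios scaling. The enzyme calls after quantile normalization were 0 in Dox and 6 higher and 2 lower in CpG1668+Dox. Adding Dox to CpG1668, or CpG1668 to Dox, gave 0 of 49 called, with 3.26% and 3.48% of all genes called and 7 and 6 enzyme genes at an unadjusted p under 0.05, where 15.4% and 13.7% of all genes were. CpG1668 against Dox gave 1, Kdm6b, which was lower, with 1.56% of all genes called (1.21% lower). For the interaction of CpG1668 and Dox 0 of 49 enzyme genes and 0 of 12167 genes were called by limma, with 4 and 812 (6.67%) at an unadjusted p under 0.05.

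The treated and PBS libraries of more enzyme genes were separate without reaching the call. In CpG1668 the groups did not overlap for 12 of the 49 genes (24.5%), 10 above PBS and 2 below, where 25.6% of all genes did not overlap (11.3% above, 14.3% below). In Dox the count was 21 (42.9%), 15 above and 6 below, where it was 25% of all genes (15.2% above, 9.81% below). In CpG1668+Dox it was 26 (53.1%), 20 above and 6 below, where it was 35.3% of all genes (18.8% above, 16.6% below). The share was thus at the background in CpG1668 and above it in Dox and CpG1668+Dox, a description with no test of the difference. Within groups the coefficient of variation of the 49 genes ran from 2.18% for Hdac1 to 9.20% for Hdac4.

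**Figure D3:**
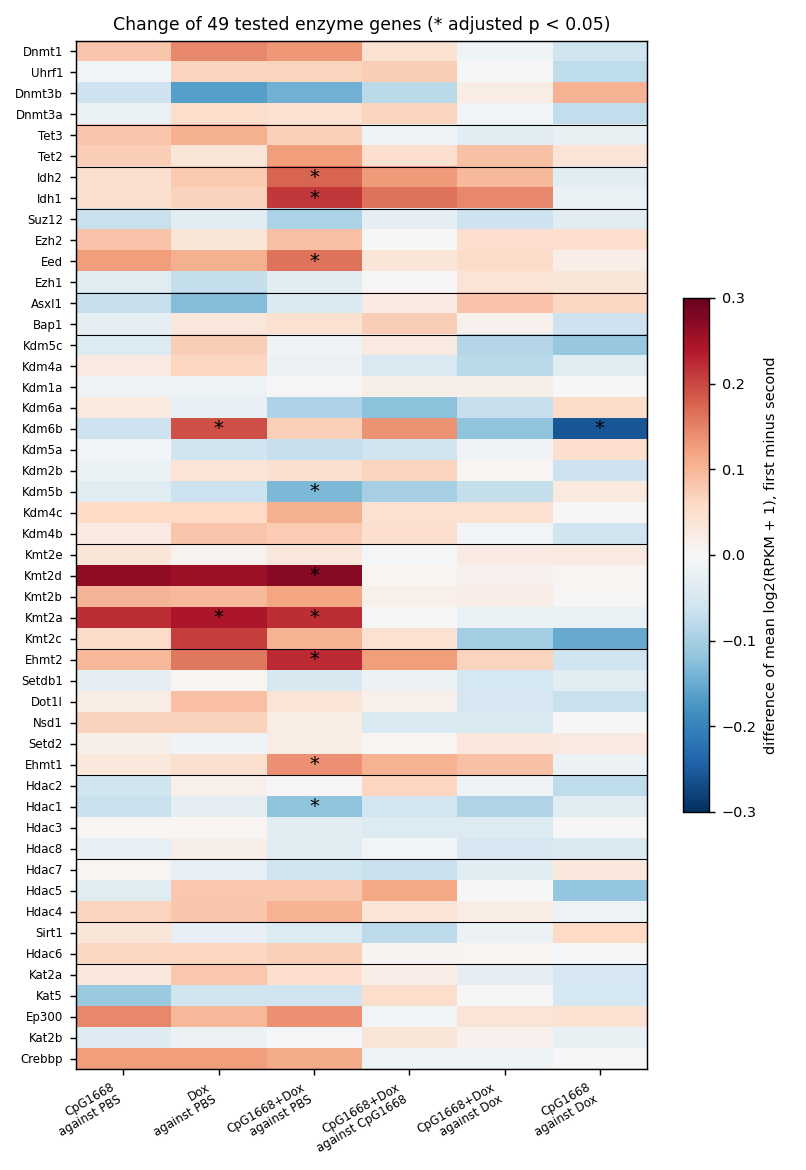
Change of the 49 tested enzyme genes (rows, by class) in 6 comparisons of 2 groups (columns), as the difference of log2(RPKM + 1), with a colour scale from -0.3 to 0.3 and an asterisk where the adjusted p was under 0.05. The 12 asterisks are 2 in Dox against PBS, 9 in CpG1668+Dox against PBS and 1 in CpG1668 against Dox.

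The KMT2 family held the largest differences from PBS. These enzymes methylate lysine in the histone H3 tail at active promoters and enhancers: Kmt2a (MLL1) and Kmt2b (MLL2) mainly at promoters, Kmt2c (MLL3) and Kmt2d (MLL4) at enhancers, and Kmt2e (MLL5) has little known catalytic activity. All 5 had positive changes against PBS in each treated group, with medians of 0.10 for CpG1668, 0.21 for Dox and 0.12 for both, where the median over all genes was -0.01, 0.01 and 0.00. In Dox it was 4 of 5 under median-of-ratios scaling, quantile normalization or a correction for transcript length. The call was reached by 0 of 5, 1 of 5 and 2 of 5 in the same order, where 5.88%, 5.98% and 15.5% of all genes were called. Counts out of 5 genes are too small to set the family apart from these shares.

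Kmt2a (ENSMUSG00000002028.13, chromosome 9, 44803355 to 44881296, GRCm38, minus strand) measured 8.75, 7.71 and 8.69 RPKM in the PBS libraries. It measured 10.4, 9.68 and 9.67 in CpG1668, 9.17, 10.6 and 10.51 in Dox, and 9.58, 9.76 and 10.48 in CpG1668+Dox. All 9 treated libraries lay above all 3 PBS libraries, and the 3 treated groups overlapped each other. The Dox mean stood 20.5% above that of PBS (log2 change 0.24, SE 0.062, limma adjusted p = 0.046), and the CpG1668+Dox mean 18.5% above it (0.22, adjusted p = 0.034). In CpG1668 the change was of like size and was not called (0.22, adjusted p = 0.064). Kmt2d (ENSMUSG00000048154.17, chromosome 15, 98831669 to 98871204, minus strand) measured 10.3, 9.27 and 9.64 in PBS, 12.4, 11.9 and 11.4 in CpG1668, 10.47, 12.4 and 12.7 in Dox, and 11.01, 11.9 and 13.04 in CpG1668+Dox. Again every treated library exceeded every PBS library, by a narrow margin in Dox 1. Its mean was 23.1% higher in CpG1668+Dox than in PBS (0.27, SE 0.074, limma adjusted p = 0.029), and the changes in CpG1668 (0.27, adjusted p = 0.060) and Dox (0.26, adjusted p = 0.067) were not called.

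For both genes the interaction was negative, with -0.24 for Kmt2a (adjusted p = 0.648) and -0.25 for Kmt2d (adjusted p = 0.730) in limma, and was not called: the change after both treatments was about that after either. Kmt2c had 5.64 ± 0.246 RPKM under PBS against 6.68 ± 0.560 under Dox (0.21, adjusted p = 0.083), Kmt2b had 9.72 ± 0.502 in PBS and 10.6 ± 0.248 in CpG1668+Dox (0.12, adjusted p = 0.077, n = 3, limma), and Kmt2e differed by at most 0.04 in the 3 comparisons against PBS. These are long transcripts, of 16470 bases for Kmt2a and 19823 for Kmt2d at the longest. Over the 467 genes with a transcript of at least 8 kb the median change from the PBS mean ran from -0.05 to 0.07 per library, and its ranges overlapped between groups. With a correction for transcript length, chosen after seeing the data, both genes were also called in CpG1668 against PBS. The Dox call of Kmt2a was lost in 16 of 21 alternatives, among them the omission of any single library other than Dox 1 and CpG1668+Dox 3 (limma adjusted p up to 0.177). Its CpG1668+Dox call was lost in 7 of 21 (up to 0.125). These were no filter, the replicate block, and the omission of PBS 2, PBS 3 or any CpG1668+Dox library. The call of Kmt2d was lost without any filter and without PBS 2, PBS 3, CpG1668+Dox 2 or CpG1668+Dox 3 (up to 0.105). A stretch of 455 bases of Kmt2d matches the predicted gene Gm47184 at 99.6%, so reads there could be shared, and 2.27% of the exon bases of Kmt2a overlap the antisense gene AC061963.1.

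**Figure D4:**
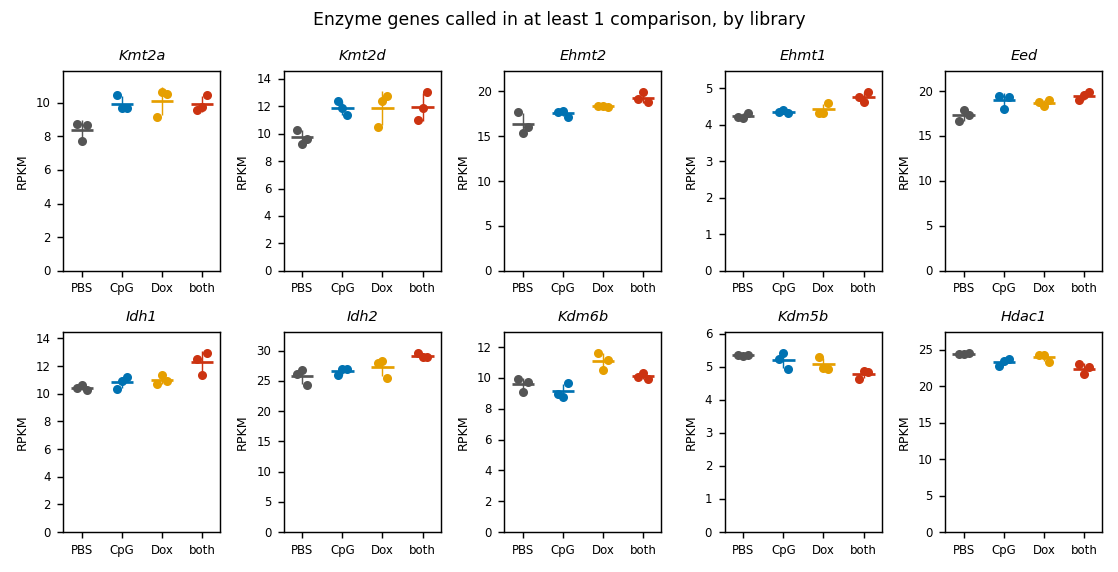
RPKM of each library (points) for the 10 enzyme genes called in at least 1 comparison, by group (PBS, CpG for CpG1668, Dox, and both for CpG1668+Dox), with a bar at the group mean, a vertical line of 1 SD to each side and each vertical axis starting at 0. For Kmt2a and Kmt2d all treated libraries stand above the PBS libraries, while for Idh1, Idh2, Ehmt1 and Ehmt2 the CpG1668+Dox libraries stand above all others.

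The G9a pair, Ehmt2 (G9a) and Ehmt1 (GLP), forms a heterodimer that methylates histone H3 in silent euchromatin, and both genes were highest in CpG1668+Dox. Ehmt2 (ENSMUSG00000013787.15, chromosome 17, 34898469 to 34914052, plus strand) measured 17.7, 15.4 and 16.1 RPKM in PBS, 17.7, 17.9 and 17.2 in CpG1668, 18.4, 18.4 and 18.3 in Dox, and 19.1, 19.9 and 18.8 in CpG1668+Dox. The CpG1668+Dox libraries exceeded all 9 others, and the CpG1668 libraries overlapped PBS through PBS 1. Its mean was 17.8% higher in CpG1668+Dox than in PBS (log2 change 0.22, SE 0.045, limma adjusted p = 0.0056). The same contrast gave 0.10 in CpG1668 (adjusted p = 0.243) and 0.16 in Dox (adjusted p = 0.064), neither called. Ehmt1 (ENSMUSG00000036893.17, chromosome 2, 24789928 to 24919614, minus strand) measured 4.21, 4.19 and 4.33 in PBS, 4.35, 4.40 and 4.32 in CpG1668, 4.33, 4.33 and 4.60 in Dox, and 4.76, 4.63 and 4.89 in CpG1668+Dox. Here too the 3 libraries with both treatments exceeded the other 9. The mean was 12.3% higher than in PBS (0.14, SE 0.036, adjusted p = 0.025). Ehmt2 kept its call in all 21 alternatives (limma adjusted p from 8.2e-04 to 0.037). Ehmt1 lost it in 6 of 20, among them the omission of PBS 1, PBS 2, CpG1668+Dox 1 or CpG1668+Dox 3 (up to 0.086).

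Against the single treatments the pair was not called. Ehmt2 differed by 0.13 from CpG1668 (limma adjusted p = 0.182) and by 0.07 from Dox (0.605), and Ehmt1 by 0.11 (0.165) and 0.09 (0.291). The other 4 lysine methyltransferases outside the KMT2 family were not called in any of the 7 comparisons. Setd2 lay at group means of 8.41 to 8.63 RPKM, Setdb1 at 16.3 to 17.0, Dot1l at 12.5 to 13.3 and Nsd1 at 11.2 to 11.8. Of all 6 genes, 5 had positive changes in each comparison against PBS, or 4 in Dox under median-of-ratios scaling, quantile normalization or the length correction, with medians of 0.03, 0.06 and 0.03.

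Both isocitrate dehydrogenase genes were higher after CpG1668+Dox. They were the only class in which every gene was called in that comparison, but a class of only 2 genes, where 15.5% of all genes were called. Idh1, the cytosolic enzyme (ENSMUSG00000025950.16, chromosome 1, 65158616 to 65186500, minus strand), measured 10.4, 10.6 and 10.3 RPKM in PBS, 10.4, 10.9 and 11.2 in CpG1668, 10.7, 11.3 and 10.9 in Dox, and 12.5, 11.3 and 12.9 in CpG1668+Dox. CpG1668+Dox 2 barely exceeded Dox 2, and the other 2 libraries with both treatments stood clear. The mean was 17.5% above PBS (log2 change 0.21, SE 0.047, limma adjusted p = 0.0099), and the call was kept in all 21 alternatives (0.0023 to 0.042). Idh2, the mitochondrial enzyme (ENSMUSG00000030541.16, chromosome 7, 80094846 to 80115392, minus strand), measured 26.2, 26.7 and 24.3 in PBS, 25.9, 26.9 and 26.9 in CpG1668, 27.95, 28.2 and 25.5 in Dox, and 29.5, 29.0 and 29.0 in CpG1668+Dox. The 3 libraries with both treatments again lay above the other 9. Its mean was 13.3% above PBS (0.18, SE 0.045, adjusted p = 0.022), a call lost without PBS 3 or any single CpG1668+Dox library (up to 0.083). Relative to CpG1668 alone the changes were 0.16 (adjusted p = 0.091) and 0.13 (0.179), and relative to Dox alone 0.14 (0.163) and 0.10 (0.377), for Idh1 and Idh2 in limma. The ratio of Idh2 to Idh1 stayed at 2.24 to 2.60 over the 12 libraries. The late neutrophil and monocyte sums given above also had their highest values in CpG1668+Dox, and their part in the results on the Idh and Ehmt genes was not tested.

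Among the DNA methyltransferases the sign of the change differed between the maintenance enzyme and Dnmt3b, without a call. Dnmt1 (ENSMUSG00000004099.16, chromosome 9, 20907209 to 20959888, minus strand) measured 65.0, 58.9 and 63.2 RPKM in PBS, 67.2, 65.1 and 66.0 in CpG1668, 71.0, 69.3 and 66.6 in Dox, and 68.4, 70.0 and 66.4 in CpG1668+Dox. All treated libraries exceeded the PBS libraries, by a small margin over PBS 1 in CpG1668 2. The changes of 0.08, 0.14 and 0.13 had limma adjusted p = 0.284, 0.068 and 0.055. Dnmt3b had means of 6.40 ± 0.359 in PBS, then 6.08 ± 0.105, 5.59 ± 0.260 and 5.70 ± 0.430 (changes -0.06, -0.17 and -0.14, limma adjusted p = 0.560, 0.104 and 0.095). Dnmt3a lay at 2.43 to 2.61 and Uhrf1 at 46.0 to 48.5 in group means, and neither was called. The replication and mitosis genes, with which Dnmt1 and Uhrf1 are usually expressed, summed to 976 to 1002 RPKM under PBS, 965 to 1004 with CpG1668, 935 to 1034 with Dox and 987 to 1015 with both, and 1 of 24 was called in the 3 comparisons against PBS.

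The TET genes, which open the removal of DNA methylation, had positive changes for Tet2 and Tet3 and were not called. Tet2 was at 3.04 ± 0.146 RPKM in PBS and 3.40 ± 0.0797 in CpG1668+Dox, and Tet3 at 6.88 ± 0.314 and 7.29 ± 0.570. Their changes from PBS were 0.04 to 0.13 in the 3 comparisons. Tet1 was low throughout, at 0.122 to 0.233 RPKM, which at the estimated depth is 61.3 to 103 reads per library on its longest transcript. It stood outside the filter, and without the filter it was not called.

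Of the PRC2 core only Eed, the subunit that binds the Polycomb mark and stimulates its catalytic partner, was called. Eed (ENSMUSG00000030619.9, chromosome 7, 89954654 to 89980983, minus strand) measured 16.6, 17.9 and 17.4 RPKM in PBS, 19.5, 18.0 and 19.4 in CpG1668, 18.7, 18.3 and 19.0 in Dox, and 19.0, 19.5 and 19.9 in CpG1668+Dox. All 9 treated libraries exceeded the PBS libraries, narrowly in CpG1668 2, and the treated groups overlapped. In CpG1668+Dox the mean was 12.5% above PBS (log2 change 0.16, SE 0.039, limma adjusted p = 0.016), and the call was lost without PBS 1 or CpG1668+Dox 3 and under the length correction (up to 0.066). The changes in CpG1668 (0.13, adjusted p = 0.090) and Dox (0.11, adjusted p = 0.154) were not called. Ezh2 was at 23.8 ± 0.541 in PBS and 25.3 ± 0.668 in CpG1668+Dox (0.09, limma adjusted p = 0.155), Suz12 at 38.4 ± 1.29 and 35.8 ± 0.210, and Ezh1 at 4.27 ± 0.172 and 4.15 ± 0.150. Bap1, which removes ubiquitin from histone H2A, and its partner Asxl1 stayed at group means of 14.0 to 14.7 and 14.4 to 15.9 and were not called. The exons of Eed overlap those of the antisense transcript E230029C05Rik over 6.82% of their bases, and whether strand was used in counting is not given in the sources used here.

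Lysine demethylases went in both directions, with medians of -0.01, 0.05 and -0.01 over 10 genes in CpG1668, Dox and CpG1668+Dox. Kdm6b (JMJD3), which erases the Polycomb mark from histone H3 and is induced by inflammatory signals in macrophages, differed most between the single treatments. This gene (ENSMUSG00000018476.7, chromosome 11, 69398508 to 69413675, minus strand) measured 9.92, 9.08 and 9.74 RPKM in PBS, 8.96, 8.78 and 9.65 in CpG1668, 11.6, 10.52 and 11.2 in Dox, and 10.1, 10.3 and 9.93 in CpG1668+Dox. The Dox libraries were above all others, the CpG1668 libraries overlapped PBS, and the libraries with both treatments lay between CpG1668 and Dox. The Dox mean stood 15.8% above that of PBS (log2 change 0.19, SE 0.047, limma adjusted p = 0.035), and in CpG1668 it differed from Dox by -17.7% (-0.26, adjusted p = 0.025). In CpG1668+Dox it differed from Dox by -0.12 (adjusted p = 0.255) and from CpG1668 by 0.13 (0.177). The call against PBS was lost in 10 of 21 alternatives (up to 0.129), among them no filter, both scalings, and the omission of PBS 2, PBS 3, Dox 1, Dox 3 or CpG1668+Dox 1. That against Dox was lost without CpG1668 1, CpG1668 2, Dox 1 or Dox 3 (up to 0.111). The exons of Kdm6b overlap the antisense gene Kdm6bos over 4.11% of their bases. The 12 genes of handling stress, such as Fos and Jun, summed to 331 to 377 RPKM under PBS, 466 to 910 with CpG1668, 445 to 806 with Dox and 445 to 689 with both. Every PBS library thus lay below every treated library. The highest sums were 910 in CpG1668 3 and 806 in Dox 1. Kdm6b was highest within its group in both of these libraries. The part of handling in the values of Kdm6b, or of enzyme genes that also separated PBS from all treated libraries, was not tested.

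Kdm5b, which removes active methyl marks from histone H3, was lower after both treatments. Kdm5b (ENSMUSG00000042207.17, chromosome 1, 134560171 to 134635285, plus strand) measured 5.35, 5.33 and 5.36 RPKM in PBS, 5.23, 5.40 and 4.94 in CpG1668, 5.30, 4.97 and 4.94 in Dox, and 4.64, 4.87 and 4.83 in CpG1668+Dox. The 3 libraries with both treatments were below the other 9. The mean differed from PBS by -10.6% (log2 change -0.14, SE 0.040, limma adjusted p = 0.041), a call kept in 9 of 21 alternatives and lost without any single PBS or CpG1668+Dox library, CpG1668 1, Dox 2 or Dox 3 (up to 0.127). The other 8 demethylase genes were not called in any of the 7 comparisons. Kdm4c was nearest, at 4.34 ± 0.0785 in PBS and 4.76 ± 0.188 in CpG1668+Dox (0.11, limma adjusted p = 0.070). Kdm1a (LSD1), a drug target in myeloid leukaemia, held group means of 13.4 to 13.6, and Kdm6a, the relative of Kdm6b, of 11.01 to 12.1.

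Deacetylases remove acetyl groups from histone tails, and Hdac1, a catalytic subunit of the NuRD, Sin3 and CoREST complexes, was the single gene of the 10 here that was called. Hdac1 (ENSMUSG00000028800.15, chromosome 4, 129516104 to 129542713, minus strand) measured 24.4, 24.5 and 24.5 RPKM in PBS, 22.8, 23.5 and 23.7 in CpG1668, 24.3, 24.2 and 23.3 in Dox, and 23.1, 21.6 and 22.6 in CpG1668+Dox. Every treated library lay below the PBS libraries, which were close to each other. The mean differed by -8.29% in CpG1668+Dox (log2 change -0.12, SE 0.033, limma adjusted p = 0.029), and the call was lost without any single PBS library, CpG1668+Dox 2 or CpG1668+Dox 3 (up to 0.115). Its value is uncertain for another reason: 1444 bases of the 2038-base transcript match Gm10093 at 99.4% and 1450 match AC125456.1 at 96.3%, and how such reads were shared out is not given in the sources used here. The 4 class I genes had median changes of -0.04, 0.01 and -0.03 in the 3 comparisons against PBS, of which that in Dox turned negative under median-of-ratios scaling, quantile normalization and the length correction. Hdac2 lay at 24.3 to 25.6 in group means, Hdac3 at 11.6 to 11.97, Hdac8 at 2.60 to 2.73, Hdac5 at 6.63 to 7.27, Hdac7 at 8.72 to 9.19 and Hdac6 at 5.40 to 5.72. Hdac4 was at 1.22 ± 0.0321 in PBS and 1.39 ± 0.207 in CpG1668+Dox, and the sirtuin Sirt1 at 6.90 ± 0.513 and 6.67 ± 0.156.

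Hdac9, a class IIa deacetylase, was the lowest of the 51 genes and the one with the widest relative spread. It measured 0.00206, 0.00841 and 0.0110 RPKM in PBS, 0.0368, 0.0195 and 0.0308 in CpG1668, 0.00843, 0.0221 and 0.0149 in Dox, and 0.0579, 0.0417 and 0.0457 in CpG1668+Dox. At the estimated depth, and over the longest transcript, these are 0.535 to 2.67 reads per PBS library, 5.35 to 9.09, 2.14 to 5.35, and 11.2 to 15.5 reads per CpG1668+Dox library, where 3 reads correspond to 0.0108 to 0.0124 RPKM. The libraries with both treatments stood above all others and those of CpG1668 above PBS. Hdac9 did not pass the filter. Fitted without it over 33531 genes, Hdac9 was called in CpG1668+Dox against PBS (limma adjusted p = 0.0026) and against Dox (0.025), and not in CpG1668 against PBS (0.110). The PBS libraries lie under 3 reads, and no fold change is given. Hdac9 averaged 0.0290 RPKM in CpG1668 and 0.0152 in Dox. Marker sums that were likewise lowest in PBS and highest with both treatments differed in this order. Lower in CpG1668 than in Dox were the averages of late neutrophil (728 against 1420 RPKM), monocyte and macrophage (158 against 163) and T and NK cell genes (15.4 against 16.2). Higher in CpG1668 were those of B cell (4.10 against 2.52), splenic macrophage (32.4 against 29.6) and leukaemia and progenitor genes (246 against 240). A sum need not follow most of its genes. Of 10 tested leukaemia and progenitor genes, only Mpo (47.8 against 17.4) was higher with CpG1668 than with Dox (median log2 change -0.15). Against PBS, 4 of these 10 had positive changes after both treatments (median -0.05). Of 12 tested monocyte and macrophage genes, 10 were higher with CpG1668 than with Dox (median 0.34). Whether the reads of Hdac9 come from the leukaemia cells was not tested.

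Of the acetyltransferases, the paired coactivators Ep300 (p300) and Crebbp (CBP) were higher in all treated libraries than in all PBS libraries, without reaching the call. Ep300 measured 7.74, 7.06 and 7.59 RPKM in PBS, 8.52, 8.33 and 8.21 in CpG1668, 7.99, 8.14 and 8.06 in Dox, and 7.85, 8.13 and 8.96 in CpG1668+Dox. Its changes were 0.14, 0.10 and 0.14 (limma adjusted p = 0.101, 0.261 and 0.070). Crebbp measured 4.77, 4.54 and 4.76 in PBS and from 4.98 to 5.53 in the 9 treated libraries, with changes of 0.13, 0.13 and 0.11 (adjusted p = 0.116, 0.120 and 0.103). Kat5 (TIP60) went the other way, from 12.5 ± 0.414 under PBS to 11.5 ± 0.510 with CpG1668, 11.97 ± 0.00746 with Dox and 11.96 ± 0.0274 with both (-0.11, -0.06 and -0.06, limma adjusted p = 0.099, 0.394 and 0.293). Kat2a (GCN5) and Kat2b (PCAF) held group means of 26.4 to 27.9 and 6.97 to 7.19 and were not called.

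Partners of these enzymes in the same complexes were followed through 7 further lists of chromatin genes, 163 in all, of which 162 were in the files and 149 were tested. In CpG1668 8 of 149 were called (3 higher, 5 lower), in Dox 9 (6 and 3) and in CpG1668+Dox 24 (19 and 5), beside 5.88%, 5.98% and 15.5% of all genes. Of 12 COMPASS and MLL subunits, the partners of the KMT2 enzymes, 0, 2 and 1 were called in the same order. Pagr1a, a subunit of the Kmt2c and Kmt2d complexes, measured 9.23, 9.82 and 9.12 RPKM in PBS, 9.11, 10.3 and 9.77 in CpG1668, 11.2, 11.7 and 12.3 in Dox, and 12.5, 11.9 and 12.4 in CpG1668+Dox. The 6 libraries with a Dox label stood above the 6 without, and Pagr1a was called in Dox against PBS (0.29, limma adjusted p = 0.0062), in CpG1668+Dox against PBS (0.36, 4.7e-04) and against CpG1668 (0.31, 0.0078), and in CpG1668 against Dox (-0.25, 0.033). Men1 (menin), which tethers Kmt2a, had a mean of 15.3 ± 0.908 under PBS against 17.6 ± 0.398 under Dox (log2 change 0.19, limma adjusted p = 0.027).

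The methionine adenosyltransferase gene Mat2a, whose product supplies the methyl donor of DNA and histone methyltransferases alike, showed the largest change of these 149 genes. It measured 88.3, 87.8 and 96.8 RPKM in PBS, 77.7, 70.4 and 63.5 in CpG1668, 64.1, 72.5 and 65.0 in Dox, and 65.1, 60.6 and 66.0 in CpG1668+Dox. No treated library reached the PBS range, and Mat2a was called lower in CpG1668 (-0.37, limma adjusted p = 0.015), Dox (-0.43, 0.0066) and CpG1668+Dox (-0.50, 7.3e-04). Tdg, the glycosylase that excises the bases that TET enzymes oxidise, averaged 20.1 ± 0.570 under PBS, against 17.98 ± 0.485 with CpG1668, 18.7 ± 0.677 with Dox and 16.8 ± 0.5 with both, and was called lower in CpG1668 (-0.15, adjusted p = 0.039) and CpG1668+Dox (-0.25, 0.0011). Of 18 tested genes of DNA methylation and its readers, 0 were called higher and 2 lower in CpG1668, 1 and 1 in Dox, and 1 and 2 in CpG1668+Dox.

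**Figure D5:**
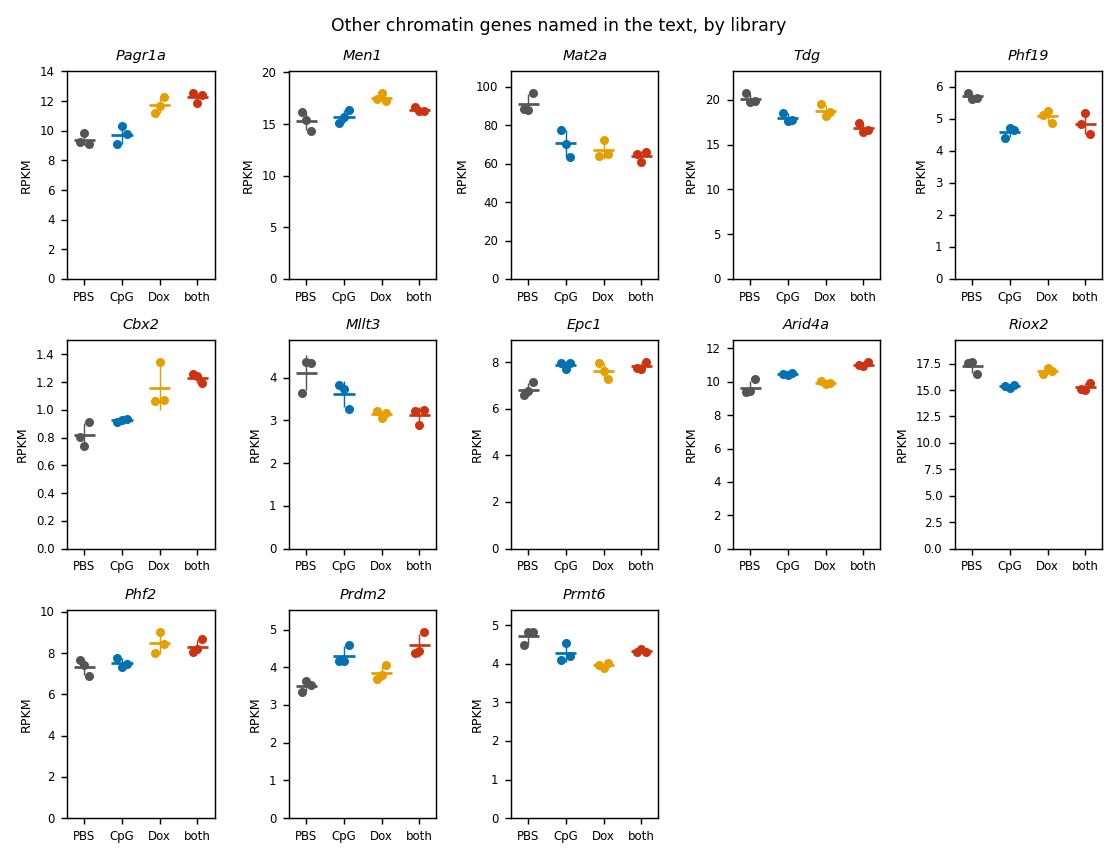
RPKM of each library (points) for the genes named from the 7 further lists, by group (PBS, CpG for CpG1668, Dox, and both for CpG1668+Dox), with a bar at the group mean, a vertical line of 1 SD to each side and each vertical axis starting at 0. Mat2a and Tdg stand lower in CpG1668+Dox than in PBS, and Pagr1a and Prdm2 higher.

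Polycomb genes outside the core gave 0 called higher and 1 lower of 27 in CpG1668, 1 and 0 in Dox and 5 and 1 in CpG1668+Dox. Beside this list and those that follow, 5.88% of all genes were called in CpG1668 and 5.98% in Dox. In CpG1668+Dox the share was 15.5% (9.13% higher and 6.4% lower), and no list was tested against it. Phf19, which recruits PRC2, was at 5.70 ± 0.0959 RPKM in PBS and 4.59 ± 0.166 in CpG1668 (-0.26, limma adjusted p = 0.0075). Cbx2, a reader of the Polycomb mark, was at 0.818 ± 0.0851 in PBS and 1.23 ± 0.0365 in CpG1668+Dox (0.30, adjusted p = 0.011). Further demethylases gave 0 and 1, 0 and 0, and 1 and 1 of 12, with Riox2 at 17.2 ± 0.596 in PBS and 15.3 ± 0.354 in CpG1668+Dox (-0.16, 0.0063) and Phf2 at 7.33 ± 0.392 and 8.31 ± 0.326 (0.16, 0.049). Further methyltransferases gave 1 and 0, 0 and 1, and 2 and 0 of 24. Among them Prdm2 was at 3.51 ± 0.140 in PBS and 4.58 ± 0.307 in CpG1668+Dox (0.31, limma adjusted p = 0.0023), and the arginine methyltransferase Prmt6 at 4.71 ± 0.190 under PBS against 3.96 ± 0.0701 under Dox (-0.20, 0.016).

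Deacetylase complexes gave 0, 1 and 3 called higher of 26 and none lower. Arid4a, a subunit of the Sin3 complex, was at 9.64 ± 0.435 RPKM in PBS and 11.04 ± 0.122 in CpG1668+Dox (log2 change 0.18, limma adjusted p = 0.0040). Acetyltransferase subunits and readers of acetyl marks gave 2 higher and 1 lower of 30 in CpG1668, 1 and 1 in Dox, and 6 and 1 in CpG1668+Dox. Epc1, a subunit of the Kat5 complex, was at 6.82 ± 0.289 in PBS and 7.82 ± 0.149 in CpG1668+Dox (0.17, limma adjusted p = 0.012), and Mllt3 (AF9), a reader and a fusion partner of Kmt2a in human leukaemia, at 4.12 ± 0.410 and 3.12 ± 0.198 (-0.31, 0.0090).

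Calls of enzyme genes after CpG1668+Dox rested on single libraries in part. The counts that follow are of enzyme genes only, and whether their fall went beyond that of all genes in the same fits was not tested. Without CpG1668+Dox 3 the count against PBS was 3 in place of 9, without PBS 2, PBS 3 or CpG1668+Dox 2 it was 4, and without PBS 1 or CpG1668+Dox 1 it was 6. The late neutrophil genes moved with this comparison, with 15 of 15 called higher against PBS, as did 12 of 12 tested monocyte and macrophage genes, and 13 of 15 erythroid genes were called lower. In CpG1668 the same lists gave 11 of 15 and 12 of 12 higher and 4 of 15 lower, where 0 of 49 enzyme genes were called, and in Dox 15 of 15, 12 of 12 and 7 of 15, where 2 of 49 were. Splenic macrophage genes gave 1 of 9 tested called higher in each of the 3 comparisons, megakaryocyte genes 0 of 4, the single tested B cell gene (Ighm) 1 of 1 and the single tested T and NK cell gene 0 of 1. The leukaemia and progenitor list gave 1 higher and 4 lower of 10 in CpG1668, 1 and 0 in Dox and 1 and 3 in CpG1668+Dox, and the 12 genes of handling stress gave 0, 0 and 2. The part of these lists in the enzyme calls was not tested.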

How the data were processed

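RNA of sorted leukaemia cells was sequenced in 12 libraries, 3 in each of 4 groups taken from the treatment labels. The authors deposited RPKM per gene symbol. STAR 2.7.9, Partek 7.18.0723 and the mm10 build are named per the submitters' processing notes, with no role given. Of the gene annotation, the filters and the use of strand, each is not given in the sources used here. The enzyme genes and all gene lists were chosen with earlier results of these data known.

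The 12167 of 33531 genes whose mean over the 12 libraries reached an RPKM of 1 were fitted as log2(RPKM + 1) with limma 3.58.1 in R 4.3.3, over all 4 groups (8 residual degrees of freedom, intensity trend), with Benjamini-Hochberg adjustment over all genes tested and a threshold of 0.05, in 7 comparisons. The procedure was tested on simulated data. Named in full are the enzyme genes called in at least 1 comparison, with the highest and the lowest by mean level. Dnmt3b, Ep300, Crebbp, Kat5, Tet1 and other uncalled genes were added as examples of their class, some with their values known. At most 2 genes were named from each further list, those called with the smallest adjusted p. A gene that this rule also names is not reported here. Gene positions came from GENCODE M21 (GRCm38), in which 96.4% of symbols and 51 of 51 enzyme genes were found, and promoters from RefSeq.

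Relative depth was estimated from the steps of low RPKM values: 71.8% to 72.9% of values lay within 0.05 of whole reads, too few to recover counts. At 1 kb, 3 reads correspond to 0.0856 to 0.0985 RPKM. Such floors cover counting error only, since the reads carry no molecular tags. No 2 libraries were identical. Alternatives were other filters, pseudocounts, scalings, no trend, a replicate block, a fit of only the groups compared, and each library left out. A correction for transcript length was added after seeing the data.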

Additional observations from a re-analysis of the deposited data

How the results depend on the processing

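The counts of called enzyme genes rest on small margins. For CpG1668+Dox against PBS (9 called) each alternative other than leaving out a library gave 6 to 10. The genes were not always the same. With no filter the count was again 9, but without Kmt2a and Kmt2d and with Hdac9 and Kdm4c. After the transcript length correction it was 10, without Eed and with Ep300 and Kat5. For Dox against PBS (2 called) the count was 0 with no filter, with median-of-ratios scaling, with quantile normalization and with only the groups compared, 1 with no intensity trend and 1 with the replicate block, and 4 after the transcript length correction, which was chosen after seeing the data. For CpG1668 against PBS (0 called) it was 1 with only the groups compared and 2 after the length correction. For CpG1668+Dox against Dox (0 called) it was 1 with no filter, where Hdac9 entered. For CpG1668 against Dox (1 called) it was 0 with no filter, with only the groups compared and after the length correction. Leaving out each library in turn gave 3 to 9 for CpG1668+Dox against PBS, 0 to 3 for Dox against PBS, 0 to 2 for CpG1668 against PBS, 0 to 1 for CpG1668 against Dox, CpG1668+Dox against CpG1668 and CpG1668+Dox against Dox, and 0 to 0 for the interaction. These counts of enzyme genes are not set beside those of all genes in the same fits. No called change of an enzyme gene reversed under any of these alternatives. Leaving out a library could not have reversed one, because the groups compared did not overlap for any called gene. The labels do not say whether replicate numbers pair the libraries. Over 18 same-numbered pairs the correlation of deviations from the group means ran from -0.21 to 0.27, with 2 pairs over 0.1. Over 36 pairs of different number it ran from -0.38 to 0.32, with 9 over 0.1. With 3 libraries a group, such correlations cannot decide whether the numbers stand for a pairing. With the replicate block, CpG1668+Dox against PBS gave 6 called enzyme genes, without Hdac1, Kdm5b and Kmt2a. Depth limits what can be said of Hdac9, with fewer than 3 estimated reads in each PBS library.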
